A study of Homo sapiens with 10 samples.

Results

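PRNP, the gene of the prion protein, was described across 10 libraries of EndoC-βH1 cells. It was found by its Ensembl ID among 26346 genes listed in the files and is represented there by 4 of 155130 transcripts. The gene was chosen because it was lower after SRp55 knockdown in these same libraries, so its levels, transcripts and usage are given as a description with no test.

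EndoC-βH1 is a human pancreatic beta cell line, clonal and insulin-producing. Polyadenylated RNA was sequenced from 5 preparations given the SRp55 siRNA siSR#2, and from 5 given a control siRNA. SRp55, the product of SRSF6, belongs to the serine/arginine-rich family of splicing factors. The SRp55 group rests on 1 siRNA and on 1 cell line, and the series design calls the preparations independent. The study's title concerns splicing events that depend on SRp55 in beta cells.

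PRNP encodes a glycoprotein held at the outer cell surface by a glycosylphosphatidylinositol (GPI) lipid anchor. Its amino-terminal repeats bind copper, and its misfolded form is the agent of prion diseases. The normal protein is abundant in neurons and is made in many other tissues. A metalloprotease, ADAM10, sheds it from the membrane, and the anchor itself is built and attached in the endoplasmic reticulum.

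In the files PRNP (ENSG00000171867.12) spans 4666882 to 4682236 on the plus strand of chromosome 20 (GRCh37), and no other listed gene overlaps it on either strand. GENCODE 44 gives each of its 4 transcripts 2 exons, with the whole open reading frame of 762 bases, stop codon included, in the second exon. The 3′ untranslated region (UTR) of the canonical transcript ENST00000379440.9 is 1606 bases long. A pair of short stretches of it is shown because they hold a word, AGGCTTA, or its core, AGGCTT, that an earlier analysis of these libraries had found more often in genes that fell. Capitals mark the word or the core. In the first (GRCh38 chr20:4701391-4701420, plus strand) the word starts at base 1420 of the UTR. In the second (GRCh38 chr20:4700673-4700702, plus strand) the core alone starts at base 702.
PRNP AGGCTTA site: gcgtggtccttAGGCTTAcaatgtgcactg
PRNP AGGCTT core site: acatatatgaaAGGCTTctgggacttgaaa
No further copy of AGGCTT was found in the rest of the transcript, and CAGGCTT, the other word of that earlier work, was not found. The words were searched on the RNA strand only. The sequence of siSR#2 was not used here, so the words were not compared with it, and what part the siRNA itself has in genes that hold them was not tested.

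The siRNA target was read first. SRSF6 was at 23.8, 23.4, 25.3, 31.1 and 21.0 RPKM (reads per kilobase of transcript, scaled to the library's read total) in SRp55 siRNA replicates 1 to 5, against 99.5, 99.5, 92.4, 99.7 and 100.0 RPKM in control siRNA replicates 1 to 5. The groups stood far apart, in the direction the labels give, with means of 24.9 ± 3.78 RPKM after SRp55 siRNA and 98.2 ± 3.24 RPKM after control siRNA (SD, n = 5 each).

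Every library of the SRp55 group held less PRNP RNA than every control library. The RPKM summed over its transcripts was 23.0, 24.2, 26.4, 27.2 and 14.5 in SRp55 siRNA replicates 1 to 5, against 62.4, 55.9, 58.0, 58.9 and 49.3 in control siRNA replicates 1 to 5. The groups did not overlap, which was also true, in the same direction, of 2.32% of the 13630 genes tested. Replicate 5 was the lowest library of its group in both groups. The mean was 23.1 ± 5.05 RPKM after SRp55 siRNA and 56.9 ± 4.86 RPKM after control siRNA (SD, n = 5 each), so 40.5% of the control mean remained. Without SRp55 siRNA replicate 5 the SRp55 mean was 25.2 ± 1.91 RPKM (SD, 4 libraries).

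On the log2(RPKM + 0.5) scale, where fold changes of low genes are understated, PRNP differed by -1.42 relative to the median tested gene (SE 0.16). That placed it 6th from the lowest of the 13630 tested genes. It was 3rd from the lowest among 606 genes that passed limma's adjusted p of 0.05, carried a symbol and had at least 2 RPKM in the higher group. Of all tested genes 1.25% passed as lower and 3.76% as higher, and PRNP is one of the lower genes by the choice that brought it here. The control level was higher than that of 89.0% of tested genes, and the SRp55 level higher than that of 66.8%. In bulk RNA fewer cells with the transcript and less transcript in each cell cannot be told apart.

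**Figure D1:**
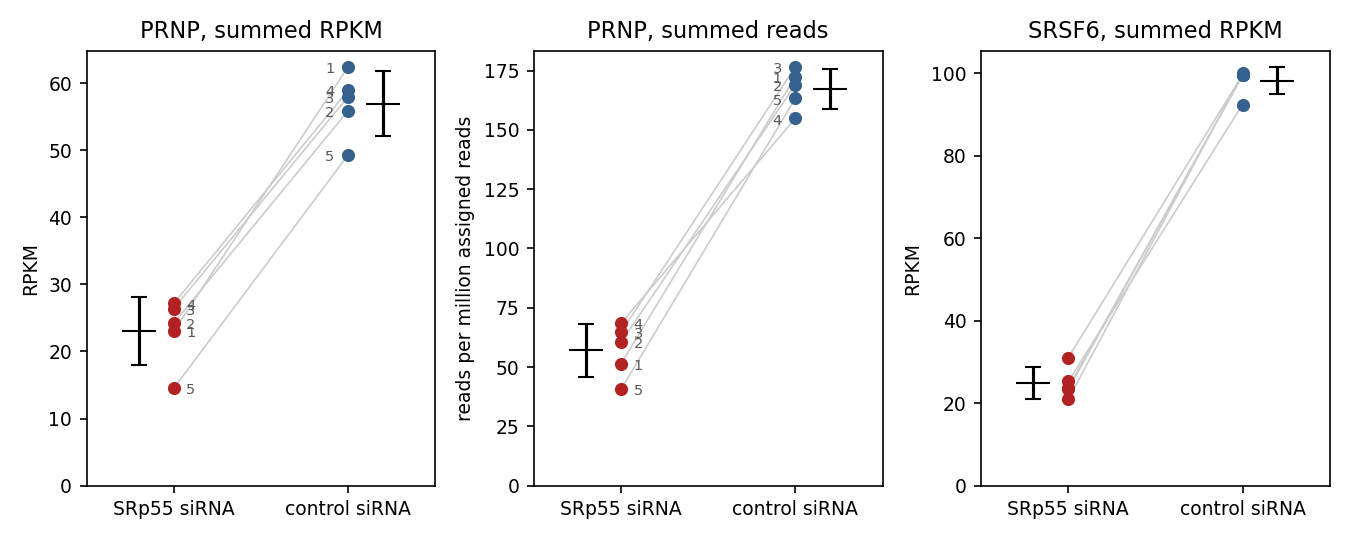
PRNP as summed RPKM and as RPM (reads per 1000000 assigned reads), and SRSF6 as summed RPKM, in the 5 SRp55 siRNA and 5 control siRNA libraries. Points are libraries, numbers in the PRNP panels are replicates, grey lines join equal replicate numbers, and bars give mean ± SD; for PRNP the groups stand apart on both scales, with SRp55 siRNA replicate 5 lowest at 14.5 RPKM.

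The reads behind these values were many. PRNP held 6053, 7242, 6127, 13000 and 4755 estimated reads in SRp55 siRNA replicates 1 to 5, against 17675, 10468, 20618, 24647 and 22046 in control siRNA replicates 1 to 5. As reads per 1000000 reads assigned to transcripts (RPM), this was 57.1 ± 11.2 RPM after SRp55 siRNA and 167 ± 8.46 RPM after control siRNA (SD, n = 5 each), or 34.2% of the control mean. The control libraries, at 155 to 177 RPM, lay close together, and the SRp55 libraries ranged from 40.6 to 68.5. On the log2 RPKM scale 83.9% of tested genes varied more than PRNP among controls, and 25.9% varied more among SRp55 libraries.

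By equal replicate number, the PRNP left was 36.9%, 43.4%, 45.5%, 46.1% and 29.5% of control in replicates 1 to 5. The SRSF6 left was 23.9%, 23.5%, 27.3%, 31.2% and 21.0% in the same order. Replicate 5 had the lowest and replicate 4 the highest remaining share of both genes, and 5 pairs are too few for a correlation.

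The 4 PRNP transcripts did not move alike. In the files they begin at different positions, from 4666882 for ENST00000379440.4 to 4667189 for ENST00000457586.1, and they also end at different places. ENST00000430350.2 (2539 bases) and ENST00000379440.4 (2657 bases) run to the end of the gene. ENST00000424424.1 (806 bases) and ENST00000457586.1 (855 bases) stop 1623 and 1719 bases short of it, which is 15 and 111 bases before the start of the 3′ UTR in ENST00000430350.2. These models therefore hold neither stretch of sequence printed above. GENCODE 44 carries later versions of both, ENST00000424424.2 and ENST00000457586.2, whose 3′ UTR is 1608 bases long, so the early ends are not in that later annotation.

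The leading transcript carried nearly all of the difference. ENST00000430350.2 was at 14.4, 15.6, 16.1, 21.1 and 8.55 RPKM in SRp55 siRNA replicates 1 to 5, against 53.3, 44.7, 51.3, 48.7 and 42.8 RPKM in control siRNA replicates 1 to 5. The groups did not overlap, and the mean was 15.1 ± 4.48 RPKM after SRp55 siRNA and 48.2 ± 4.37 RPKM after control siRNA (SD, n = 5 each), 31.4% of control. SRp55 siRNA replicate 4 kept the most of this transcript and replicate 5 the least. The share of all transcripts whose groups do not overlap was not counted, so this separation has no background beside it.

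ENST00000379440.4, the earlier version of the canonical transcript, was lower in 4 of 5 pairs. It was at 3.26, 2.66, 3.56, 1.88 and 2.54 RPKM in SRp55 siRNA replicates 1 to 5, against 4.11, 4.93, 3.33, 4.82 and 3.86 RPKM in control siRNA replicates 1 to 5. The ranges met on RPKM, since SRp55 siRNA replicate 3 lay above control replicate 3, and 66.1% of the control mean remained. As RPM it was lower in 5 of 5 pairs, at 62.4% of control, and the highest SRp55 library, at 10.993 RPM, lay just under the lowest control library, at 10.998 RPM.

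The early-ending transcript ENST00000424424.1 differed from both. It was at 5.07, 5.94, 6.55, 3.74 and 3.25 RPKM in SRp55 siRNA replicates 1 to 5, against 4.59, 5.80, 3.05, 4.48 and 2.31 RPKM in control siRNA replicates 1 to 5. The groups overlapped over most of their range, and 4 of 5 pairs were higher after SRp55 siRNA. The means of 4.91 ± 1.41 and 4.04 ± 1.38 RPKM for SRp55 siRNA and control siRNA (SD, n = 5 each) differed by less than 1 SD. As RPM 2 of 5 pairs were higher after SRp55 siRNA. ENST00000457586.1 was scarce, at 0.251 ± 0.142 RPKM after SRp55 siRNA and 0.492 ± 0.294 RPKM after control siRNA (SD, n = 5 each), from 10.4 to 148 estimated reads a library. It was lower after SRp55 siRNA in 5 of 5 pairs, at 51.1% of the control mean.

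Taken as sums, the models that reach the gene end were at 17.9 ± 4.33 RPKM after SRp55 siRNA and 52.4 ± 4.21 RPKM after control siRNA, 34.2% of control. The models that end early summed to 5.16 ± 1.35 RPKM after SRp55 siRNA and 4.54 ± 1.52 RPKM after control siRNA, 114% of control (SD, n = 5 each). ENST00000424424.1 made up most of that sum, and the scarce ENST00000457586.1 went the other way, at 51.1% of control. As RPM, the early-ending sum was 4.79 ± 1.20 after SRp55 siRNA and 4.46 ± 1.43 after control siRNA. All 4 models share most of the coding sequence, so the split of reads among them is an estimate made by the authors' program and carries its error. Whether the early-ending reads come from RNA that stops there was not tested.

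**Figure D2:**
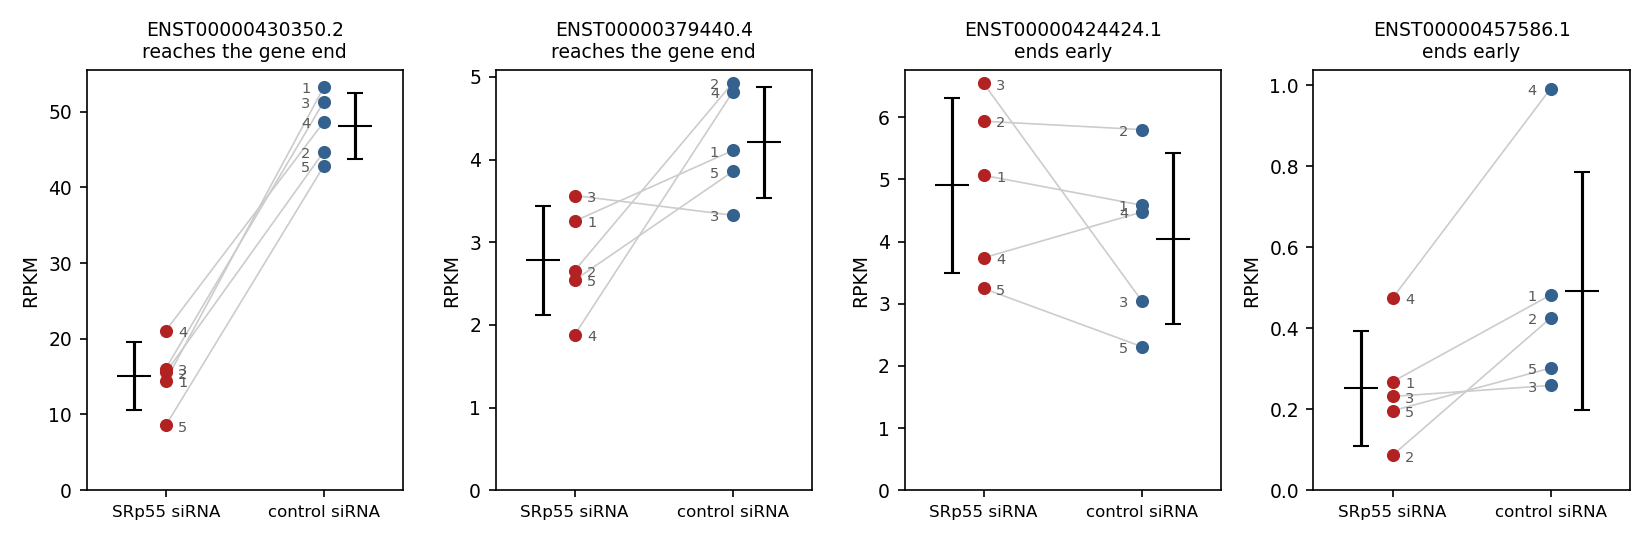
RPKM of each PRNP transcript in the 5 SRp55 siRNA and 5 control siRNA libraries (points, replicate numbers beside them; grey lines join equal numbers; bars are mean ± SD; each panel has its own axis from 0). Only for the leading transcript, ENST00000430350.2, do the groups stand apart, and ENST00000424424.1 is at 4.91 RPKM after SRp55 siRNA and 4.04 RPKM after control siRNA.

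Usage, the percent of PRNP RPKM held by a transcript, also differed between the groups. ENST00000430350.2 held 62.7%, 64.2%, 60.8%, 77.6% and 58.8% in SRp55 siRNA replicates 1 to 5, against 85.3%, 80.0%, 88.6%, 82.5% and 86.9% in control siRNA replicates 1 to 5. Every SRp55 library lay below every control library, with SRp55 siRNA replicate 4 nearest to the controls. How many leading transcripts of other genes separate in this way by usage was not counted. The means were 64.8% ± 7.41 and 84.7% ± 3.41 for SRp55 siRNA and control siRNA (SD, n = 5 each), a difference of -19.8 percentage points.

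On RPKM ENST00000424424.1 had the largest gain in share, at 21.5% ± 4.49 after SRp55 siRNA and 7.05% ± 2.25 after control siRNA (SD, n = 5 each), higher in 5 of 5 pairs. ENST00000379440.4 held 12.6% ± 3.94 after SRp55 siRNA and 7.43% ± 1.25 after control siRNA, higher in 4 of 5 pairs. ENST00000457586.1 held 1.10% ± 0.521 after SRp55 siRNA and 0.854% ± 0.481 after control siRNA. Of 10940 genes with more than 1 transcript and a mean of at least 2 RPKM, the leading transcript moved at least as far as that of PRNP in 5.66%, and the median movement was 4.82 points. Counted in reads rather than RPKM, which gives short transcripts less weight, the leading transcript held 76.0% ± 6.41 after SRp55 siRNA and 89.1% ± 2.19 after control siRNA, a difference of -13.2 points. On reads the order of the other transcripts turned round, with ENST00000379440.4 at 15.6% ± 5.04 after SRp55 siRNA and 8.20% ± 1.47 after control siRNA. ENST00000424424.1 was then at 8.05% ± 1.86 after SRp55 siRNA and 2.37% ± 0.797 after control siRNA (SD, n = 5 each).

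**Figure D3:**
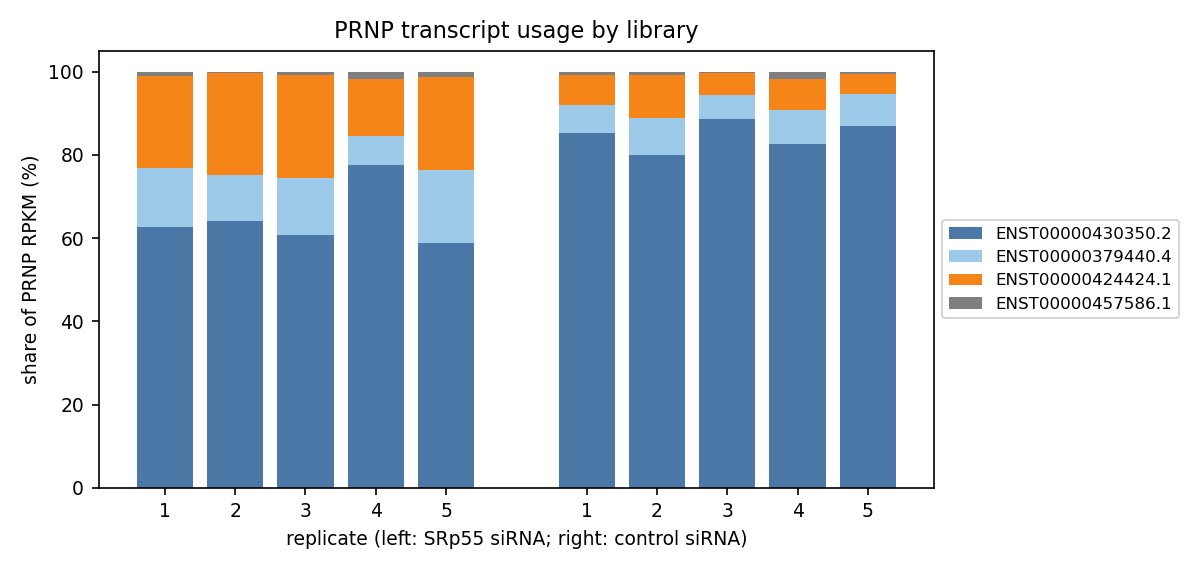
Share of PRNP RPKM held by each of its 4 transcripts, stacked to 100% for each library, with the 5 SRp55 siRNA libraries on the left and the 5 control siRNA libraries on the right. The leading transcript is at 77.6% or less in every SRp55 library and is at 80.0% or more in every control library, and the orange band of ENST00000424424.1 is wider in the SRp55 libraries.

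The words printed above are common in 3′ UTRs. AGGCTTA was found on the RNA strand in 9.13% of the 12613 tested genes with a canonical 3′ UTR in GENCODE 44, and in 6.68% of the 2157 whose UTR was 75% to 125% as long as that of PRNP. The core AGGCTT, which every AGGCTTA and every CAGGCTT contains, was in 36.9% and 36.6%, and CAGGCTT in 15.4% and 13.9%. Leaving PRNP out, 4.43% of the 1150 genes with AGGCTTA were called lower and 2.52% higher, against 0.934% lower and 3.98% higher among the 11462 genes without it. With CAGGCTT 3.97% were lower and 2.83% higher, against 0.768% and 4.03% without it. With the core AGGCTT 2.47% were lower and 3.16% higher, against 0.54% and 4.25% without it. Genes with and without a word were not matched for UTR length in these shares. No other gene with AGGCTTA was as low as PRNP, whose -1.42 compares with a median of -0.08 for the others, all on the log2 fold change scale. These values come from the libraries in which the words were first seen and are no independent evidence for them.

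Among the 606 genes ordered above, those with fold changes next to that of PRNP were of mixed kind. Those further down were SRSF6 itself (log2 fold change -2.08) and AQP3, a water and glycerol channel (-1.52). Those less far down were FBXO2, a ubiquitin ligase subunit that binds glycoproteins (-1.41), MRPS27, of the mitochondrial ribosome (-1.36), FYCO1, an autophagosome adaptor (-1.34), SLC10A3, a membrane protein (-1.31), and FOXO4, a transcription factor (-1.31). All of them were lower in 5 of 5 pairs. Of these neighbours in the order, SLC10A3 holds AGGCTTA, as PRNP does, AQP3, MRPS27 and SLC10A3 hold CAGGCTT, SRSF6 and FOXO4 hold the core alone, and FBXO2 and FYCO1 hold none.

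The genes whose log2 level over the 10 libraries was most like that of PRNP were RCBTB1 (Pearson r = 0.993), HERC3 (0.991), ARL2BP (0.990), CMTM6 (0.989), BBS12 (0.987) and MTPN (0.985). CMTM6 is a membrane protein that protects PD-L1 from lysosomal decay, HERC3 belongs to a ubiquitin ligase family, and ARL2BP binds the small GTPase ARL2. All 6 were lower after SRp55 siRNA, with log2 fold changes from -1.22 for CMTM6 to -0.90 for RCBTB1. RCBTB1, CMTM6 and MTPN hold AGGCTTA, and HERC3, ARL2BP and BBS12 do not. This likeness includes the group difference, so the fall of these genes was built into their choice. The words were first seen in genes that fell in these same libraries. Word tallies of these genes and of the neighbours in fold change are therefore no evidence for the words. HERC3, CMTM6 and MTPN, and MRPS27 and FBXO2 above, overlap other expressed genes in the files, so their reads could be shared with them.

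Measured instead on deviations from the group means, which leave the group difference out, the most similar were SCOC (r = 0.985), TMEM30A (0.980), MMGT1 (0.980), TEX10 (0.977), THAP12 (0.972) and HERC3 (0.972). SCOC was at 192 ± 39.6 RPKM after SRp55 siRNA and 162 ± 14.9 RPKM after control siRNA (SD, n = 5 each), while MMGT1 (log2 fold change -0.69, limma adjusted p = 0.030) and HERC3 were lower after SRp55 siRNA. HERC3 alone was in both sets of 6. None of these 6 holds AGGCTTA or CAGGCTT, and 2 hold the core. The 10 points of each correlation share libraries, depth and the library total behind RPKM, and the 6 were picked from 11430 genes, so the values are descriptive.

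Within 1 Mb the files list 27 genes, of which 14 had a mean of at least 0.5 RPKM and were tested. None of the 14 passed limma's adjusted p of 0.05, where 5.02% of all tested genes did, and 5 had an unadjusted p under 0.05. With the replicate block 2 of them were called, MAVS lower (log2 fold change -0.36, adjusted p = 0.042) and CDC25B higher (0.27, adjusted p = 0.026), where 3.7% of tested genes were lower and 9.39% higher. On summed reads MAVS and CDS2 were called lower and PCNA higher, where 9.87% of tested genes were lower, 7.3% higher and 17.2% either. The share of all tested genes with an unadjusted p under 0.05 was not counted, here or for the lists below. Such counts therefore have no background beside them. The nearest genes, PRND, which encodes the PrP-like protein Doppel, at 20.3 kb and PRNT at 29.7 kb, were listed at 0 in every library. RASSF2, at 78.4 kb, was at most 0.0567 RPKM and was not tested.

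The nearest tested gene, SLC23A2, a vitamin C transporter 151 kb away, was at 9.46 ± 1.19 RPKM after SRp55 siRNA and 10.6 ± 1.42 RPKM after control siRNA (log2 fold change -0.26, limma adjusted p = 0.52). TMEM230, a vesicle membrane protein, differed by -0.22 on the log2 scale (adjusted p = 0.69). PCNA, the sliding clamp of DNA replication, was at 417 ± 176 RPKM after SRp55 siRNA and 259 ± 21.8 RPKM after control siRNA (0.50, adjusted p = 0.14; SD, n = 5 each), with SRp55 siRNA replicate 1 at 725 RPKM and the other 4 at 302 to 392 RPKM. On the other side the nearest tested genes were SMOX, RNF24 and PANK2, with log2 fold changes of 0.15, 0.01 and 0.16 and limma adjusted p of 0.54, 0.63 and 0.19. By pairs, PCNA, RNF24 and PANK2 were higher and SLC23A2 lower in 5 of 5.

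**Figure D4:**
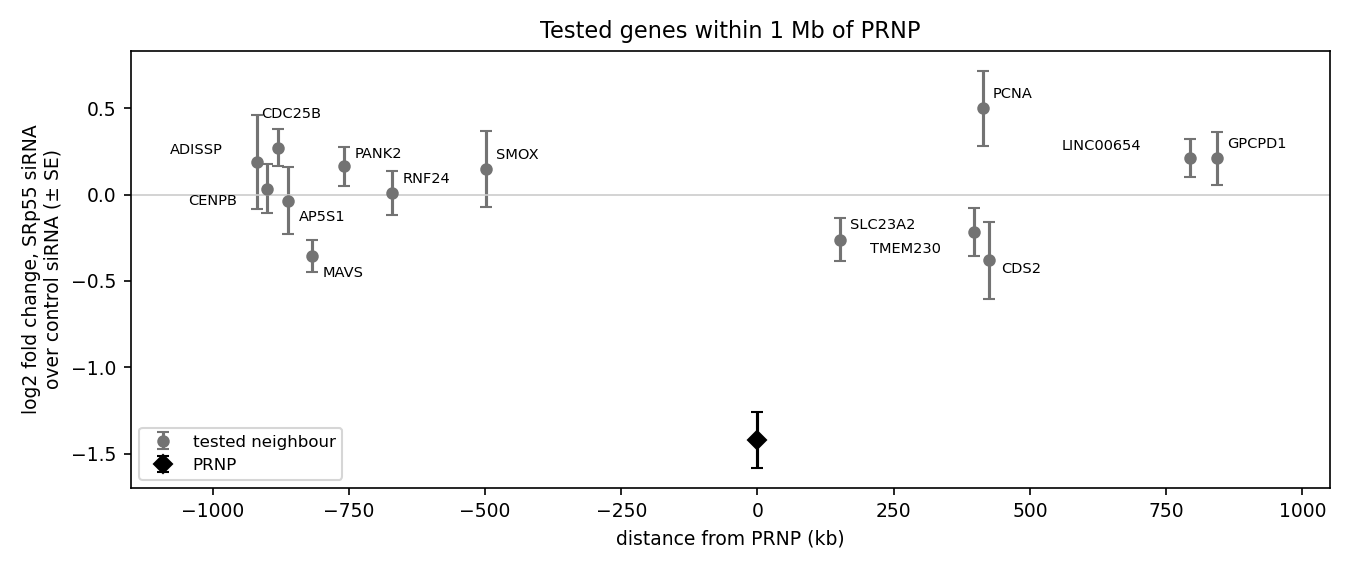
Log2 fold change of SRp55 siRNA over control siRNA, relative to the median tested gene (± SE from limma), of PRNP and the 14 tested genes within 1 Mb, against distance from PRNP in kb. PRNP is at -1.42 and its neighbours lie between -0.38 for CDS2 and 0.50 for PCNA.

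A further list held 12 genes, the PrP relatives and the membrane zinc transporters of the LIV-1 subfamily. Of these, 9 were tested and none was called, where 5.02% of all tested genes were, with 1 at an unadjusted p under 0.05. Their median, -0.22 on the log2 scale, compares with 0 over all tested genes by construction. SPRN, which encodes the PrP-like protein Shadoo, was low, at 1.48 ± 0.220 RPKM after SRp55 siRNA and 1.86 ± 0.134 RPKM after control siRNA (-0.36, adjusted p = 0.20), and lower in 5 of 5 pairs, though in the files it overlaps MTG1 on the opposite strand. SLC39A6 and SLC39A10, zinc importers of this family, had log2 fold changes of -0.07 and -0.08 (adjusted p = 0.88 and 0.94). On summed reads 3 of the list, SLC39A7, SLC39A8 and SLC39A14, were called lower, where 9.87% of tested genes were lower, 7.3% higher and 17.2% either.

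The machinery that builds and attaches the GPI anchor held 1 called gene. Of 34 tested members PIGV was called lower, none higher and 33 did not pass, which makes 2.94% against 5.02% of all tested genes, 1.25% of them lower. PIGV, which adds the second mannose of the anchor, was at 4.08 ± 0.501 RPKM after SRp55 siRNA and 6.98 ± 0.593 RPKM after control siRNA (log2 fold change -0.82, SE 0.11, limma adjusted p = 0.0069; SD, n = 5 each), lower in 5 of 5 pairs with no overlap, as 2.32% of tested genes were. That call held under every alternative run. GPAA1 and PIGT, subunits of the transamidase that joins anchor to protein, had log2 fold changes of 0.06 and -0.24 (adjusted p = 0.47 and 0.57). PIGY, chosen after its values were seen, had -1.35 (adjusted p = 0.33), and overlaps HERC3 on the opposite strand and PYURF on the same strand, so its reads cannot be told apart from theirs.

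Of 70 other GPI-anchored proteins listed in the files 41 were tested and none was called, where 5.02% of all tested genes were, with 7 at an unadjusted p under 0.05 and a median log2 fold change of -0.01. CD59, which blocks the complement membrane attack complex, was at 89.4 ± 22.0 RPKM after SRp55 siRNA and 129 ± 19.6 RPKM after control siRNA (-0.67, adjusted p = 0.13; SD, n = 5 each), lower in 5 of 5 pairs. It was called lower under the replicate block, at an adjusted p of 0.045, where 3.7% of tested genes were lower, 9.39% higher and 13.1% either. Scaling by median of ratios gave 0.027, where 3.67% were lower, 3.18% higher and 6.85% either, and summed reads gave 0.0012. SEMA7A, a semaphorin chosen after its values were seen, had -0.71 (adjusted p = 0.071) and was called lower under the same 3 alternatives. Others of the list were called higher under 1 of these 3 alternatives, each higher in 5 of 5 pairs. With the replicate block these were NT5E (log2 fold change 0.29) and RGMA (0.23). Both lay at the threshold, with a limma adjusted p that rounds to 0.05, against 0.20 and 0.34 without the block. On summed reads it was RECK (0.59, adjusted p = 0.013, against 0.094 on RPKM). GPC1, a glypican, was at 15.8 ± 2.76 RPKM after SRp55 siRNA and 16.9 ± 1.99 RPKM after control siRNA (-0.21, adjusted p = 0.70).

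Among proteases, ligands and partners of PrP, 38 of 46 listed genes were tested, 1 was called higher, 1 lower and 36 did not pass, which makes 5.26% against 5.02% of all tested genes. NCAM1, a neural adhesion molecule that binds PrP at the membrane, was at 63.6 ± 4.48 RPKM after SRp55 siRNA and 45.6 ± 4.10 RPKM after control siRNA (log2 fold change 0.37, SE 0.10, limma adjusted p = 0.026; SD, n = 5 each), higher in 5 of 5 pairs with no overlap, as 5.61% of tested genes were. That call was lost in 6 of 10 fits with 1 library left out, control siRNA replicate 1, 2 or 5 or SRp55 siRNA replicate 2, 3 or 4 (adjusted p up to 0.076). TNFAIP1, an adaptor of a ubiquitin ligase, was at 12.1 ± 1.29 RPKM after SRp55 siRNA and 16.6 ± 1.85 RPKM after control siRNA (-0.55, adjusted p = 0.049), and its call was lost in 10 of 10 such fits (up to 0.12). TNFAIP1 overlaps POLDIP2 on the opposite strand.

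The proteases themselves did not pass. ADAM10 was at 44.7 ± 8.16 RPKM after SRp55 siRNA and 45.2 ± 8.05 RPKM after control siRNA (-0.12, adjusted p = 0.97), and ADAM9 had -0.01 (adjusted p = 0.60). The values that limma tested, before the median fold change was subtracted, were -0.02 for ADAM10 and 0.10 for ADAM9. RPSA, the laminin receptor, whose level is uncertain because it has many pseudogenes, had 0.15 (adjusted p = 0.49) and was higher in 5 of 5 pairs. STIP1, a secreted and cytosolic cochaperone that binds PrP, had 0.04 (adjusted p = 0.58). LRP1, the endocytic receptor of PrP, ranged from 4.40 to 10.9 RPKM after SRp55 siRNA and from 8.35 to 13.2 RPKM after control siRNA (-0.61, adjusted p = 0.20), lower in 5 of 5 pairs, and was called on summed reads (adjusted p = 0.0017). The share of all tested genes with 5 of 5 pairs in 1 direction was not counted, here or for the other genes.

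In copper handling 23 of 29 listed genes were tested, 1 was called higher and 1 lower, which makes 8.7% against 5.02% of all tested genes. MT3, a metallothionein that binds zinc and copper, was low in both groups, at 1.52 ± 0.466 RPKM after SRp55 siRNA and 0.565 ± 0.263 RPKM after control siRNA (log2 fold change 0.82, limma adjusted p = 0.024; SD, n = 5 each). COX11, which carries copper to cytochrome c oxidase, ranged from 58.6 to 84.2 RPKM after SRp55 siRNA and from 87.2 to 105 RPKM after control siRNA (-0.60, adjusted p = 0.038), and overlaps TOM1L1 and STXBP4 on the opposite strand. With 1 library left out, the MT3 call was lost in 7 of 10 fits, without control siRNA replicate 1, 2, 3 or 5 or SRp55 siRNA replicate 1, 2 or 4 (adjusted p up to 0.065). The COX11 call was lost in 8 of 10, without any of these libraries or SRp55 siRNA replicate 3 (up to 0.093). SOD1, the copper and zinc superoxide dismutase, had 0.17 (adjusted p = 0.44) and SLC31A1, the copper importer, -0.21 (adjusted p = 0.70). Of 11 transcription factors described at the PRNP promoter, SP1, MTF1 and XBP1 among them, none was called, where 5.02% of all tested genes were, and 1 had an unadjusted p under 0.05, with a median log2 fold change of 0.05.

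**Figure D5:**
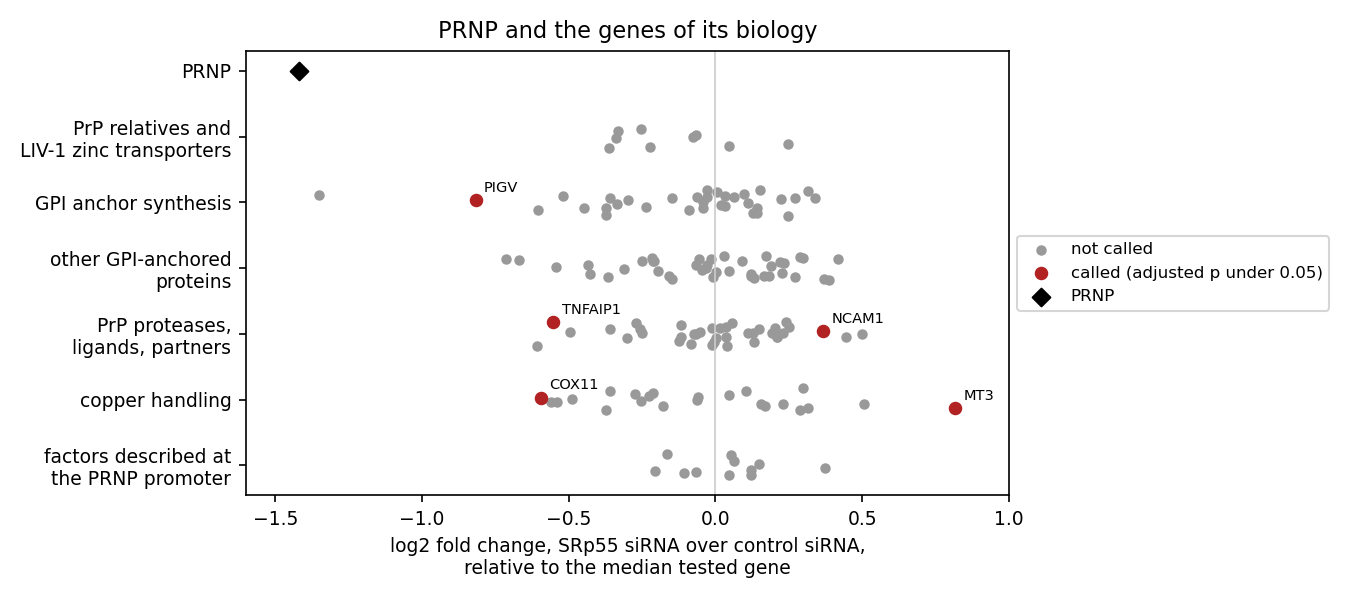
Log2 fold change of SRp55 siRNA over control siRNA, relative to the median tested gene, of PRNP (diamond) and of the tested members of 6 gene lists; each point is a gene, and red points passed limma's adjusted p of 0.05. The called genes are PIGV, TNFAIP1, NCAM1, COX11 and MT3, and PIGY, at -1.35, lies near PRNP without passing.

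Reads assigned to transcripts ranged from 94.7 to 190 M (units of 1000000 reads) in SRp55 siRNA libraries and from 61.9 to 159 M in control siRNA libraries. They made up 76.8% to 96.5% of the total behind the RPKM in SRp55 siRNA libraries and 74.2% to 90.9% in control siRNA libraries, and the RPM given above do not use that total. The 15 beta cell markers examined, INS and CHGA among them, were all expressed, with summed levels of 18998 to 29013 RPKM after SRp55 siRNA and 13450 to 25550 RPKM after control siRNA. Of these 15, 1 was called, which makes 6.67% against 5.02% of all tested genes, and 8 had an unadjusted p under 0.05. The called marker was SLC30A8, the zinc transporter of insulin granules, higher at 172 ± 24.6 RPKM after SRp55 siRNA and 77.3 ± 11.4 RPKM after control siRNA (log2 fold change 1.04, limma adjusted p = 0.0025; SD, n = 5 each). IAPP, the islet amyloid hormone, had the largest difference without a call (-1.20, adjusted p = 0.12). Neuron and glia markers summed to 144 to 197 RPKM after SRp55 siRNA and 132 to 164 RPKM after control siRNA, mostly through GAD2, SNAP25 and MBP. None of 6 tested was called, where 5.02% of all tested genes were, and 5 had an unadjusted p under 0.05. Other islet endocrine markers summed to 1481 to 2970 RPKM after SRp55 siRNA and 1204 to 2757 RPKM after control siRNA, mostly through TTR, with PPY listed at 0. Acinar and duct markers summed to 41.6 to 97.7 RPKM after SRp55 siRNA and 36.4 to 53.7 RPKM after control siRNA, with PRSS1, CELA3A, CTRB1 and PNLIP listed at 0. Mesenchymal, endothelial and immune markers summed to 31.3 to 52.2 RPKM after SRp55 siRNA and 34.3 to 51.0 RPKM after control siRNA, mostly through CD68, with CD3E listed at 0. These 3 lists had only 5, 2 and 2 tested members, and none was called, where 5.02% of all tested genes were. In the same order 2, 0 and 0 had an unadjusted p under 0.05. None of the unadjusted counts for these markers has the share of all tested genes beside it. The part of these markers in the PRNP difference was not tested.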

How the data were processed

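Polyadenylated RNA was sequenced on an Illumina instrument, per the labels' protocols. The submitters' processing notes name TopHat and the build GRCh37 (hg19). For TopHat's version, the transcript annotation, strand use and the program behind the transcript values, the answer is not given in the sources used here. The deposited files give each transcript an estimated read count, its length and its RPKM, which equals reads divided by length and by 1 total per library. The counts are estimates within a text field, and no count test was run on them.

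PRNP values were sums over its transcripts. The 13630 genes whose mean reached 0.5 RPKM entered limma 3.58.1 (R 4.3.3) as log2(RPKM + 0.5), using its trend and robust settings without a block, and p-values were adjusted over all of them by Benjamini-Hochberg. The median fold change as deposited was 0.11 (log2), so fold changes are given relative to that median. All p-values and calls come from the fold change before that median was subtracted. For genes with small fold changes the printed sign can therefore differ from the tested one. The script was tested on simulated data. Symbols were matched by Ensembl ID for 95.0% of genes, and 3′ UTR sequence came from GENCODE 44 transcripts (GRCh38).

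PRNP, the gene lists and the 3′ UTR words were chosen with earlier results of these data known. Genes named were PRNP, SRSF6, 15 relatives and partners whatever their p, called list members, the nearest tested neighbours on the chromosome, the genes next to PRNP in the order of fold change and the 6 most like it by each of 2 measures. Others are said to be chosen after their values were seen, or stand as background to a list. P-values set the group difference against the spread between these preparations within groups. Without a block, that spread includes what preparations of equal replicate number share.

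Samples with equal replicate numbers deviated together from their group means over tested genes. The correlation was 0.13 to 0.41 for equal numbers and at most 0.12 for others, so the numbers were treated as pairs in an alternative with a replicate block. Other alternatives changed the pseudocount, the scaling, the filter, the value (summed reads) and the libraries kept.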

Additional observations from a re-analysis of the deposited data

Results flagged for a closer look

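Among 66 groups of 5 libraries examined for PRNP, its transcripts, SRSF6 and the other named genes, 9 held a library far from the others; chance gives about 1 in 20. For PRNP itself, SRp55 siRNA replicate 4 stood apart in usage. Its leading transcript ENST00000430350.2 held 77.6% there and 58.8% to 64.2% in the other 4 SRp55 libraries, and its ENST00000424424.1 held 13.8% there and 22.0% to 24.8% in the others. That library also had the most SRSF6 left of its group, 31.1 RPKM. ENST00000457586.1 held 1.68% in control siRNA replicate 4 and 0.446% to 0.772% in the other controls.

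SRp55 siRNA replicate 5, the library with the least PRNP, was also lowest for ADAM10, at 30.5 RPKM against 45.2 to 50.7 in the other SRp55 libraries, and for SOD1, at 127 RPKM against 176 to 188. SRp55 siRNA replicate 1 was highest for NCAM1, at 71.4 RPKM against 60.4 to 63.0, and for PCNA, at 725 RPKM against 302 to 392. Control siRNA replicate 3 was lowest for SRSF6, at 92.4 RPKM against 99.5 to 100.0 in the other controls, and control siRNA replicate 4 highest for MT3, at 1.02 RPKM against 0.348 to 0.511.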

How the results depend on the processing

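PRNP was lower after SRp55 siRNA under every alternative run, with log2 fold changes from -1.55 on summed reads to -1.35 without the filter, and from -1.48 to -1.31 with 1 library left out. These are refits of the libraries in which PRNP was chosen for its fall, so they are no independent evidence for that fall. The replicate block left the PRNP value at -1.42, since with every pair complete a block cannot change a difference of means. The usage difference of the leading transcript was -13.2 points on reads and -23.0 to -18.3 with 1 library left out. With the replicate block it was -19.8, unchanged for the same reason. None of the 5 called list members changed direction under any alternative run.

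Counts of called genes depended more on the setting. Against 684 of 13630 genes, 2340 were called on summed reads, 1784 with the replicate block, 933 (433 higher, 500 lower) with median-of-ratios scaling, 2356 with both of these changes, summed reads and that scaling (chosen after seeing the data), and 259 to 1085 with 1 library left out. Of PrP relatives and LIV-1 transporters 3 were called on summed reads (2 with both changes; 0 to 1 with 1 library left out). On summed reads, where 17.2% of all tested genes were called, 5 of 34 were called in anchor synthesis and 6 of 41 among other GPI-anchored proteins. There were 4 of 38 among partners, 3 of 23 in copper handling and 3 of 14 within 1 Mb. With both changes these counts were, in the same order, 5, 5, 4, 3 and 3. With 1 library left out they were 1 to 1, 0 to 2, 0 to 2, 0 to 2 and 0 to 1. Of promoter factors 0 were called in each case. The replicate block called 13.1% of all tested genes. Its calls were 3 in anchor synthesis, 4 among GPI-anchored proteins, 3 among partners, 3 in copper handling and 2 within 1 Mb. Median-of-ratios scaling called 6.85% of all tested genes, and 2, 2, 3 and 3 of the first 4 lists. SDC2, a partner (log2 fold change 0.44), and SLC11A2, in copper handling (-0.54), were chosen after their values were seen. Both were called on summed reads, with the replicate block and with median-of-ratios scaling. Without the filter 1 partner was called, as TNFAIP1 missed the threshold (adjusted p = 0.056). The cause was not tested. Estimated reads of the scarcest transcript, as few as 10.4 in a library, limit what can be said of it.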
